A study of Mus musculus with 18 samples.

Results

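The region described here is a 7-Mb stretch of mouse chromosome 10, from 38.5 to 45.5 Mb in the mm8 build, read from the viewpoint of the cytokine gene Ifng, which lies 72 to 79 Mb away on the same chromosome. It holds 14 of 5021 bins of 500 kb that were tested over the genome, and 1145 probes of 384942 on the array and of 19736 on chromosome 10; the first probe starts at chr10:38505116 and the last at chr10:45498257, with a median spacing of 4830.5 bp. The stretch was chosen by its Ifng contact signal, which was high in the 2 naive arrays and low in the Th1 and Th2 arrays. The levels that separate naive cells from the other groups are therefore given as a description, with no test, and the tests below compare groups without the naive Ifng arrays. The Th1 and Th2 arrays entered that choice as its low side, which favours any group that is set against them and reads higher. The 3T3-L1 and Stat4 KO arrays were not among the arrays that chose the stretch, but the choice was made with earlier results of these data known.

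The method was 4C, circular chromosome conformation capture, which ligates DNA that lay close together in the fixed nucleus and amplifies what was joined to 1 chosen fragment, the bait. The 4C product (Cy5) was hybridised against cut genomic DNA of the corresponding cells (Cy3), so that each probe carries a log2 ratio. The 5 groups with the Ifng bait, each of 2 arrays, were the mouse cell line 3T3-L1, Stat4 KO cells cultured to Th1, Th1 cells, Th2 cells and naive CD4 T cells. With the Il4 bait, on chromosome 11, there were 2 arrays each of Stat6 KO Th2 cells, Th1, Th2 and naive cells. No strain, age, knockout allele or culture time is given in the labels, which describe the T cells as primary. The series' design text calls 18 arrays individual biological replicates and 1 a pool, without naming the pool. The protocol text speaks of adherent cells and of other baits, and the 3T3-L1 arrays carry the same cell type entry as the T cells, so the group names rest on titles and source names. Array data of this kind hold no expression values, so neither the loss of Stat4 nor the cell type markers could be checked.

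Naive CD4 T cells are mature helper T cells that have not met antigen, and on activation they differentiate into Th1 cells, which secrete interferon-gamma, the product of Ifng, or Th2 cells, which secrete interleukin 4, the product of Il4. STAT4 carries the interleukin 12 signal that drives the Th1 fate, STAT6 carries the interleukin 4 signal that drives the Th2 fate, and both bind DNA at short palindromic sites. 3T3-L1 is a fibroblast-like line that can become fat cells and does not express the T helper programmes. Genes on the same chromosome are known to contact each other over many megabases, more often within active or within inactive chromatin than between them.

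Genes of the stretch could be placed only by chromosome band, because the gene table was of the later build GRCm38.p6 and no coordinates were converted. The stretch spans parts of bands 10qB1 and 10qB2, so a gene of these bands can lie outside it. Well inside the bands, at least 500 kb from a band edge, that table places 35 protein-coding genes in 10qB1 and 22 in 10qB2. Among listed T cell and signalling genes, 10qB1 holds Fyn, a Src-family kinase of T cell receptor signalling, and Traf3ip2, the adaptor Act1 of interleukin 17 signalling. Band 10qB2 holds Foxo3, a transcription factor of T cell quiescence and survival, Cd24a, a surface glycoprotein of developing lymphocytes, Atg5, needed for autophagy, and Prdm1, which encodes BLIMP1, a repressor that limits T cell activation and drives plasma cell differentiation. The neighbours of Prdm1 in the table are Atg5 and Prep. Listed genes with other roles are Lama4, Rev3l, Amd1 and Cdk19 in 10qB1 and Sobp, Pdss2, Popdc3, Bves, Lin28b and Hace1 in 10qB2. Wasf1, Fig4, Cd164 and Sesn1 lie too near a band edge to be assigned.

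Promoters of these genes were read for STAT-type sites because the study's title concerns STAT binding. The palindromes searched in the 250 bases before the start were TTCNNNGAA and TTCNNNNGAA, which read the same on both strands and differ in the length of the gap, and AAGCTT, the HindIII site of the 4C digest. Of the listed genes, 13 had 14 promoters in RefSeq's table (GRCm38.p6). TTCNNNGAA was in 1 of the 14, that of Hace1, a ubiquitin ligase gene, against 7.02% of 32851 promoters; TTCNNNNGAA was in 0 of the 14, against 5.85%; and AAGCTT was in 2 of the 14, against 6.22%. The promoter of Prdm1, chr10:44458749-44458998 on the minus strand, holds none of the 3 motifs. It is shown because Prdm1 is the best known T cell regulator among the listed genes, though it was placed only by band. That of Hace1, chr10:45577579-45577828 on the plus strand, is shown as the single match, in capitals. Both run 5′ to 3′ and are RefSeq sequence of GRCm38.p6, not of the array's build. A match describes letters only, and no binding was measured here.
Prdm1: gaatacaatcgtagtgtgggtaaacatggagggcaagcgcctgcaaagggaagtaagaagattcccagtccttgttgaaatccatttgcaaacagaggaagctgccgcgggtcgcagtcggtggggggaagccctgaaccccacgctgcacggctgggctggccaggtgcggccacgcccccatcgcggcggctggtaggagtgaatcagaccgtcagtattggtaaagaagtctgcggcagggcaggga
Hace1: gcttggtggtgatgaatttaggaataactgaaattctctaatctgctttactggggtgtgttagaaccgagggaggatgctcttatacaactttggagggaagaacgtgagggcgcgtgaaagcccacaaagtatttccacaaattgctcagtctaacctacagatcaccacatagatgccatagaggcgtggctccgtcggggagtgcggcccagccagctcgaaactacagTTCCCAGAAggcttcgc

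Values are relative to the median probe of the other chromosomes on the same array, so 0 is the typical level of other chromosomes and a value of 1 stands for a 2-fold higher ratio. Arrays differed in strength. The mean level 1 to 2 Mb from the bait was 1.55 and 1.55 in 3T3-L1, 1.90 and 1.84 in Stat4 KO, 1.35 and 0.932 in Th1, 2.57 and 2.81 in Th2, and 2.58 and 2.30 in naive arrays, so Th1 had the weakest and Th2 and naive the strongest signal next to the bait. Th1 replicate 2 was less like its own replicate than like an array of the other bait. Over all 384942 probes its Spearman correlation with Th2 replicate 2 of the Il4 bait was 0.57 (Pearson 0.35), against 0.11 with its own replicate (Pearson 0.15). This correlation over all probes was not computed for any other pair of arrays, so whether other pairs are alike is not known. Th1 replicate 2 shares its array series with that Il4 array, and Th1 replicate 1 is of another series. The Th1 comparisons and the shape of the Th1 profile are therefore also given without Th1 replicate 2. Whether baits or samples were mixed up, or the array series made the arrays alike, was not tested. No depth exists for array ratios, and 2 arrays a group limit the precision.

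The far stretch was most strongly joined to Ifng in naive T cells and hardly at all in 3T3-L1, with the differentiated T cells between. Its mean centred log2 ratio was 0.0889 and 0.0985 in 3T3-L1, 0.577 and 0.471 in Stat4 KO, 0.334 and 0.229 in Th1, 0.358 and 0.274 in Th2, and 1.35 and 1.41 in naive T cells. As group means that is 0.09 ± 0.0068 in 3T3-L1, 0.52 ± 0.07 in Stat4 KO, 0.28 ± 0.07 in Th1, 0.32 ± 0.06 in Th2 and 1.38 ± 0.04 in naive T cells (SD, n = 2 each). The Th1 and Th2 arrays overlapped each other; every other pair of neighbours in the order 3T3-L1, Th1 and Th2, Stat4 KO, naive was separate at the level of single arrays. Set against naive cells, as a description, the level was lower by 1.29 in 3T3-L1, 0.86 in Stat4 KO, 1.10 in Th1 and 1.07 in Th2, all on the log2 scale. The size depended on the scale of the arrays: with all arrays scaled to one spread the differences were -0.85, -0.46, -0.53 and -0.67, and scaled to the level near the bait they were -0.98, -0.56, -0.62 and -0.87, in the same order of groups.

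**Figure D1:**
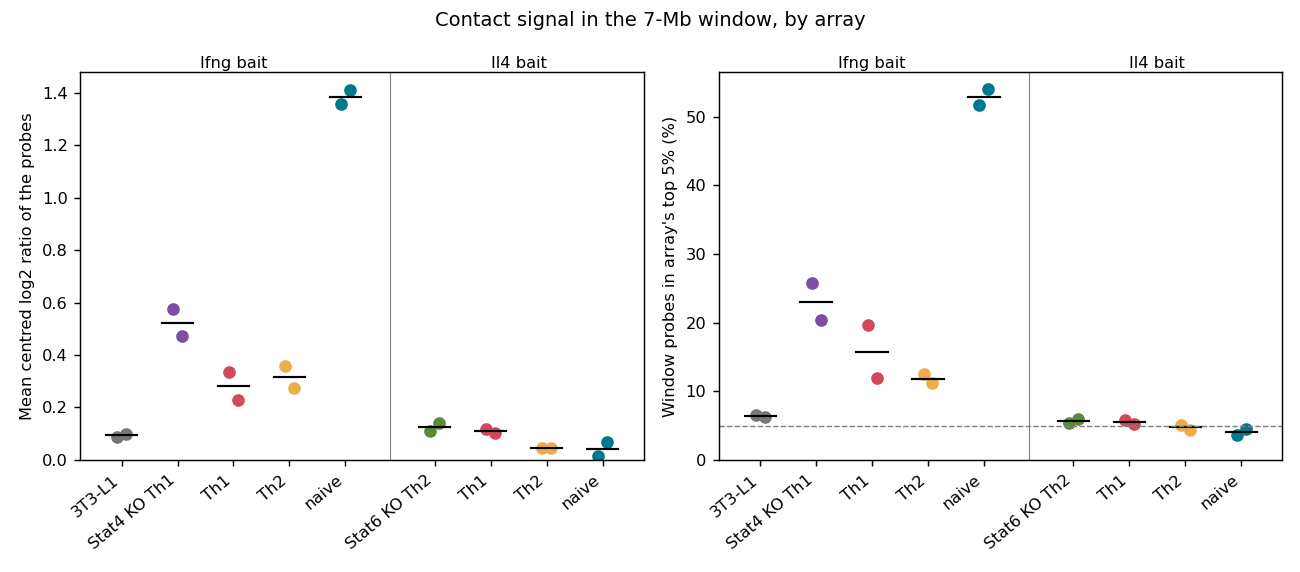
Each point is 1 array; the left panel shows the mean centred log2 ratio of the 1145 probes and the right panel the percentage of them among the array's own highest 5% of probes, with black bars at group means and a dashed line at 5%. Naive Ifng arrays lie at 1.35 and 1.41, above all other arrays; among the other groups Stat4 KO is highest, and the Il4 arrays lie at 0.140 or below.

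In naive cells the stretch had a sharp first side and a shallower second one. The first 500-kb bin inside it read 1.06 and 1.12 in the naive arrays, and the bin just before it read 0.188 and 0.0144. At the other edge the last bin inside read 0.339 and 0.513, and the bin just after it read 0.214 and 0.0239. These edge values come from the arrays that set the edges. The last 2 bins averaged 0.48 in naive cells, against 1.52 for the first 12.

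Stat4 KO, which was not among the arrays that chose the stretch, showed a step at the first edge as well, and 3T3-L1 did not. The bin inside that edge read 0.444 and 0.540 in Stat4 KO, against 0.192 and 0.137 in the bin outside. In 3T3-L1 the same bins read 0.0810 and 0.0302 inside and 0.0865 and 0.0192 outside. Averaged over the 7 Mb before and the 7 Mb after the stretch, the flanks lay near the level of other chromosomes: 0.07 and 0.09 in 3T3-L1, 0.12 and 0.10 in Stat4 KO, 0.07 and 0.06 in Th1, 0.09 and 0.14 in Th2, and 0.17 and 0.08 in naive T cells.

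The stretch minus the mean of its flanks gave -0.0139 and 0.0424 in the 3T3-L1 arrays, 0.469 and 0.359 in Stat4 KO, 0.261 and 0.175 in Th1, 0.276 and 0.122 in Th2, and 1.22 and 1.29 in naive T cells. It lay above both flanks in every Ifng array except 3T3-L1 replicate 1. The naive, Th1 and Th2 values of this measure took part in the choice and give the name of a contact domain no support; of the groups outside the choice, both Stat4 KO arrays and 1 of 2 3T3-L1 arrays lay above both flanks. Among the 13 windows of 7 Mb on chromosome 10 that end before 97 Mb, the stretch ranked 7 in 3T3-L1, 4 in Stat4 KO, 3 in Th1, 7 in Th2 and 1 in naive T cells.

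**Figure D2:**
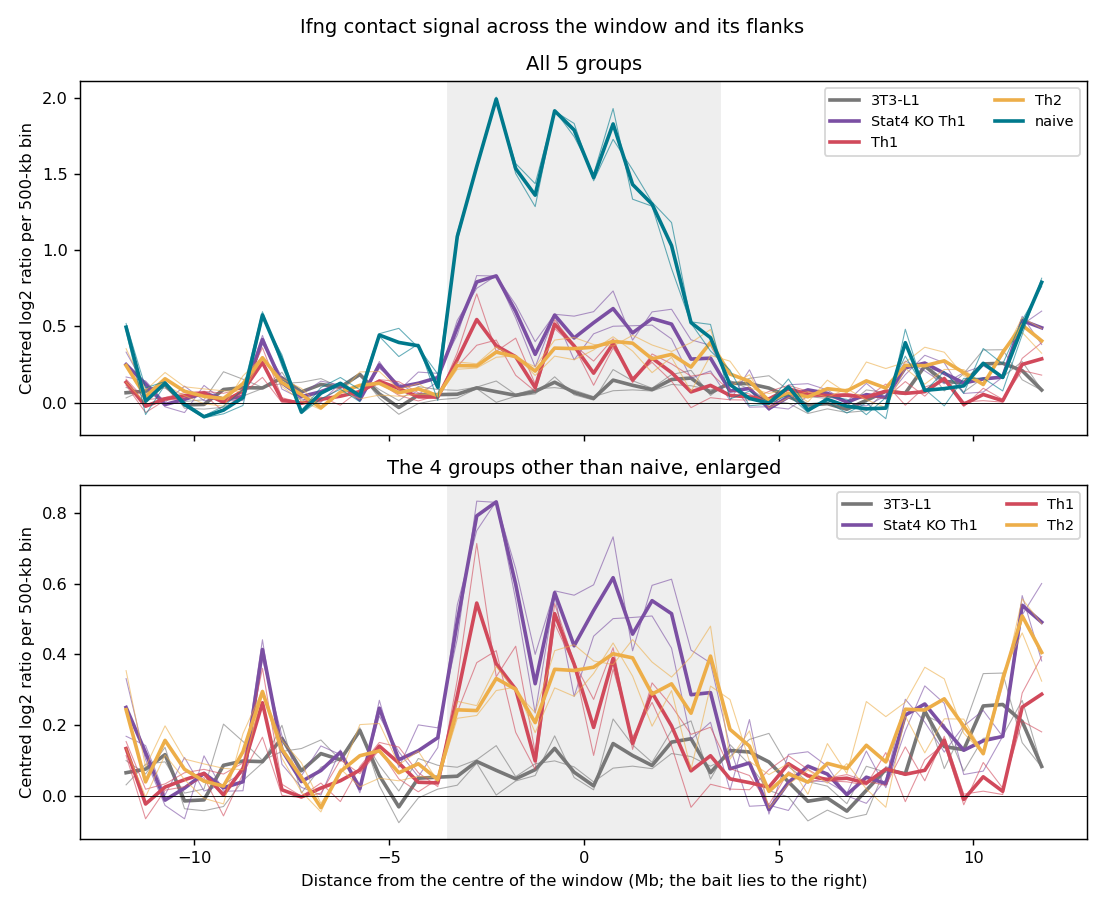
Centred log2 ratio per 500-kb bin against distance in Mb from the centre of the stretch, with thin lines for single arrays, thick lines for group means and grey for the stretch; the lower panel leaves out naive cells and enlarges the rest. The naive mean reaches 1.99, the Stat4 KO mean 0.83, and 3T3-L1 stays between 0.03 and 0.16 inside the stretch.

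Inside the stretch the levels were uneven. The highest bin differed between replicates in every group but naive, so no difference in peak place between cell types is read. Peaks are named by the mean of both arrays. The 14 bins hold 69 to 92 probes each. Naive cells peaked in chr10:39500001-40000000, at 2.00 and 1.98, and the Stat4 KO mean peaked in the same bin, at 0.830 and 0.833. Stat4 KO replicate 1 alone was highest 1 bin earlier, at 0.834. The bin chr10:39500001-40000000 read 0.142 and 0.0023 in 3T3-L1, 0.337 and 0.411 in Th1, and 0.366 and 0.298 in Th2. The Th1 mean peaked 1 bin earlier, in chr10:39000001-39500000, at 0.714 and 0.377, where the replicates were far apart. Th1 replicate 2 alone was highest in chr10:41000001-41500000, at 0.487.

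Th2 cells had the flattest profile of the T cell groups: its 14 bin means ran between 0.21 and 0.40, with an SD over bins of 0.07, against 0.16 in Stat4 KO, 0.15 in Th1 and 0.48 in naive cells. In Th2 the last 2 bins averaged 0.31 and the first 12 averaged 0.32, with the arrays on opposite sides (0.437 against 0.347 and 0.192 against 0.286). The last 2 were lower in Stat4 KO (0.29 against 0.56), in Th1 (0.09 against 0.31, and 0.184 against 0.354 in replicate 1 alone) and in naive cells (0.48 against 1.52). In 3T3-L1 the means were 0.11 for the last 2 bins and 0.09 for the first 12. Over the 14 bins the Pearson correlation with the naive profile was -0.11 for 3T3-L1, 0.70 for Stat4 KO, 0.72 for Th1 (0.53 for replicate 1 alone and 0.83 for replicate 2) and 0.25 for Th2 (-0.14 and 0.49 for the single arrays); all groups share the same probes, so these describe shape only.

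At 100-kb resolution 68 of 70 bins had at least 10 probes. They are ranked by the mean of both arrays. The highest in naive cells were chr10:39700001-39800000 (2.51 and 2.23) and chr10:39500001-39600000 (2.24 and 2.47), and chr10:42600001-42700000 (2.55 and 1.99). The second of these was the highest in Stat4 KO, at 1.39 and 0.867, and the third was the highest in Th2, at 0.964 and 0.496. Stat4 KO next peaked in chr10:44100001-44200000, at 1.18 and 1.03, where Th1 averaged 0.55 and Th2 0.28. The highest in Th1 was chr10:38900001-39000000, at 1.08 and 0.779, where Stat4 KO averaged 0.99 and Th2 0.30.

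One small bin ran the other way. Chr10:44900001-45000000 was the highest of the 68 in 3T3-L1, at 0.399 and 0.347, while it was the lowest in Th2, at -0.0981 and -0.0942, and in naive cells, at 0.182 and 0.196. Stat4 KO averaged 0.06 and Th1 0.08 there. It holds 13 probes and was picked as an extreme, so no test is given.

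The signal was carried by a part of the probes. The median probe lay at 0.025 and 0.035 in 3T3-L1, 0.13 and 0.12 in Stat4 KO, 0.08 and 0.03 in Th1, 0.08 and 0.055 in Th2, and 0.83 and 1.155 in naive T cells, so in all groups but naive the typical probe was close to the level of other chromosomes. Probes above 1 made up 4.89% and 5.15% in 3T3-L1, 25.4% and 20.2% in Stat4 KO, 14.8% and 8.56% in Th1, 10.6% and 9.17% in Th2, and 48.5% and 51.4% in naive T cells. Of the 1145 probes, 6.55% and 6.29% were in the array's own top 5% in 3T3-L1, 25.8% and 20.3% in Stat4 KO, 19.7% and 11.9% in Th1, 12.5% and 11.2% in Th2, and 51.6% and 54.0% in naive T cells. This share does not depend on the scale of an array, and both Stat4 KO arrays lay above all Th1 and Th2 arrays in it, by little for Stat4 KO replicate 2 and Th1 replicate 1.

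The high probes that recurred between replicates made up the largest share of the lists in naive cells, whose lists were also the longest. Lists overlap more the more of the stretch they cover. The list of replicate 2 covered 54.0% of the 1145 probes in naive cells. In 3T3-L1, Stat4 KO, Th1 and Th2 it covered 6.29%, 20.3%, 11.9% and 11.2%. Against these shares, the first percentage given below for each group was lower only in Th2. No order of the groups in recurrence is read from them. Probes in the top 5% of both replicates numbered 11 in 3T3-L1 (14.7% and 15.3% of the replicates' lists), 86 in Stat4 KO (29.2% and 36.9%), 37 in Th1 (16.4% and 27.2%), 14 in Th2 (9.79% and 10.9%) and 393 in naive cells (66.5% and 63.6%). Of the 86 recurrent probes of Stat4 KO, 42 (48.8%) were among the 393 of naive cells, of which they make up 10.7%; the 393 are 34.3% of all 1145 probes of the stretch. Stat4 KO and Th1 shared 3 recurrent probes, 3.49% of the Stat4 KO list and 8.11% of the Th1 list, and the Th1 list is 3.23% of all 1145, so this overlap was near the background. The Th1 list needs both Th1 arrays and cannot be given without replicate 2. Runs of 5 or more neighbouring top probes numbered 0 and 0 in 3T3-L1, 1 and 1 in Stat4 KO, 1 and 1 in Th1, 1 and 0 in Th2, and 32 and 38 in naive T cells, where the longest covered 77.8 kb (14 probes) and 81.9 kb (18 probes). Such runs also become more frequent as a list covers more of the stretch, so no more is read from them.

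Ifng contact with the stretch read higher in Stat4 KO Th1 cells than in Th1 cells. Because the stretch was chosen partly for its low Th1 and Th2 values, the choice favours this difference and the one from Th2, and the p-values and counts of both place them among all windows and bins without giving independent support. The comparison asks how far the contacts of Ifng after Th1 culture depend on that factor. The levels of 0.577 and 0.471 in Stat4 KO and 0.334 and 0.229 in Th1 did not overlap, and the difference was 0.24 (SE 0.04; limma, adjusted p = 0.0166 over 368 windows of the genome). Windows called higher made up 7.61% of the 368. Of the 14 bins, 7 were called higher and 0 lower, against 1.87% higher and 0.0199% lower of 5021 bins of the genome and 27.7% higher of the 249 tested on chromosome 10; all 14 differences were above 0, with a median of 0.24 against 0.03 over all bins. The largest was in chr10:39500001-40000000, where the Stat4 KO and naive means peaked, at 0.46 (SE 0.05; limma, adjusted p = 6.78e-05), followed by chr10:42000001-42500000 at 0.33. The differences were smallest, and not called, in chr10:41000001-41500000 and chr10:41500001-42000000, at 0.06 and 0.05.

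The call did not stand under every processing, and with trend and robust eBayes no bin was called. Without Th1 replicate 2 the difference was 0.19 (limma, adjusted p = 0.117) with 1 bin called, and without Stat4 KO replicate 2 it was 0.30 (limma, adjusted p = 0.0581). Without Th1 replicate 1 or without Stat4 KO replicate 1, 4 bins were called. The difference was 0.06 when arrays were scaled to their level near the bait, where Th1 is weak, 0.07 when scaled to one spread, 0.11 after quantile normalization and 0.07 with the median probe, none past the threshold. Among the Ifng arrays the Stat4 KO arrays are the only ones of their array series, which they share with the Stat6 KO arrays of the Il4 bait, so array series and genotype cannot be told apart.

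Against Th2 cells the Stat4 KO level also read higher, with the same limit from the choice. The arrays read 0.577 and 0.471 in Stat4 KO and 0.358 and 0.274 in Th2, without overlap, and the difference of 0.21 (SE 0.04) missed the threshold over windows (limma, adjusted p = 0.0983; unadjusted p = 0.00107), where 0.272% of windows were called higher. By bins, 6 of 14 were called higher and 0 lower, against 0.717% higher and 0.518% lower of all bins and 8.43% higher on chromosome 10, and 13 of the 14 differences were above 0. The called bins were the first 4 of the stretch, chr10:41000001-41500000 (0.22) and chr10:43500001-44000000 (0.26), led by chr10:39000001-39500000 at 0.55 (SE 0.07; limma, adjusted p = 0.000355) and chr10:39500001-40000000 at 0.50 (SE 0.05; limma, adjusted p = 3.94e-05). The last bin ran the other way, at -0.10, and was not called. Here the weaker bait signal was that of Stat4 KO, and scaling to the bait gave 0.31 (limma, adjusted p = 0.0267); by bins, 2 were called without Th2 replicate 2, 3 without Stat4 KO replicate 1, and 0 with arrays scaled to one spread or with the median probe.

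Between Th1 and Th2 cells the stretch as a whole did not differ beyond the spread of the arrays, and few of its bins were called. The arrays read 0.334 and 0.229 in Th1 and 0.358 and 0.274 in Th2, and the difference was -0.03 (SE 0.04; limma, adjusted p = 0.630), where 4.08% of windows were called. It was 0.0178 without Th1 replicate 2. Within the one array series that holds both groups it was -0.0869, a value that rests on Th1 replicate 2 as the only Th1 array of that series. Of the 14 bins, 1 was called higher, against 0.239% of all bins and 4.42% on chromosome 10, and 2 lower, against 2.41% of all bins and 38.2% on chromosome 10. The higher one was the peak of the Th1 mean, chr10:39000001-39500000, at 0.714 and 0.377 in Th1 and 0.255 and 0.227 in Th2 (difference 0.30, SE 0.07; limma, adjusted p = 0.0334).

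The lower bins were chr10:43000001-43500000 (difference -0.24, SE 0.06; limma, adjusted p = 0.0396) and the last one of the stretch, at 0.194 and 0.0328 in Th1 and 0.480 and 0.311 in Th2 (difference -0.28, SE 0.07; limma, adjusted p = 0.0463). The called bins numbered 1 without Th1 replicate 1 or Th1 replicate 2 and 0 without Th2 replicate 1, and also 0 with the array series as a block, one spread, the median probe, extreme probes left out, or trend and robust eBayes. The lower calls were below the share on chromosome 10, so no difference in inner pattern is read from these bins. Scaling to the bait turned the window difference to 0.25 (limma, adjusted p = 0.0327), and scaling to one spread or quantile normalization also made it positive, so no direction holds between Th1 and Th2.

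In 3T3-L1 cells the stretch carried less Ifng contact than in any T cell group. Both 3T3-L1 arrays (0.0889 and 0.0985) lay below both Stat4 KO arrays (0.577 and 0.471), and neither group was among the arrays that chose the stretch. A choice for high signal in naive T cells can still favour a T cell group with a similar profile. Over the 14 bins the Pearson correlation with the naive profile was 0.70 for Stat4 KO and -0.11 for 3T3-L1. The p-values and counts here therefore place the difference among all windows and bins without giving independent support. The difference was -0.43 (SE 0.04; limma, adjusted p = 0.000499), and 7.61% of windows were called lower. Of the 14 bins 12 were called lower and 0 higher, against 3.94% lower and 1.79% higher of all bins and 43.4% lower on chromosome 10, with a median difference of -0.44 against -0.02 over all bins. The largest was again in chr10:39500001-40000000, at -0.76 (SE 0.05; limma, adjusted p = 4.11e-08). The last 2 bins were the ones not called, at -0.12 and -0.23. Signal near the bait was 1.55 and 1.55 in 3T3-L1 and 1.90 and 1.84 in Stat4 KO, and scaled to it the difference of the stretch was -0.43. With the median probe it was -0.10 (limma, adjusted p = 0.530) and no bin was called.

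Against the mean of Th1 and Th2 cells, 3T3-L1 was lower by 0.21 (difference -0.21, SE 0.04; limma, adjusted p = 0.00934, with 3.26% of windows called lower), and its arrays lay below all 4 Th1 and Th2 arrays. Of the 14 bins 9 were called lower and 0 higher, against 2.01% lower and 2.95% higher of all bins and 34.9% lower on chromosome 10. The largest difference was in chr10:41000001-41500000, at -0.30 (SE 0.04; limma, adjusted p = 0.000172), and the bin chr10:44500001-45000000, which holds the 3T3-L1 peak at 100 kb, differed by 0.0093. The window call was lost without 3T3-L1 replicate 1 (-0.20; limma, adjusted p = 0.0957; 3 bins called) or replicate 2 (-0.21; limma, adjusted p = 0.0702; 1 bin called), with arrays scaled to one spread, with the median probe, and when the highest and lowest 1% of probes were left out (-0.05; limma, adjusted p = 0.607). With trend and robust eBayes 0 bins were called. Without Th1 replicate 2 the difference of the stretch was -0.23 (limma, adjusted p = 0.00677). The 3T3-L1 arrays are from array series of their own, and cell type and series cannot be told apart.

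**Figure D3:**
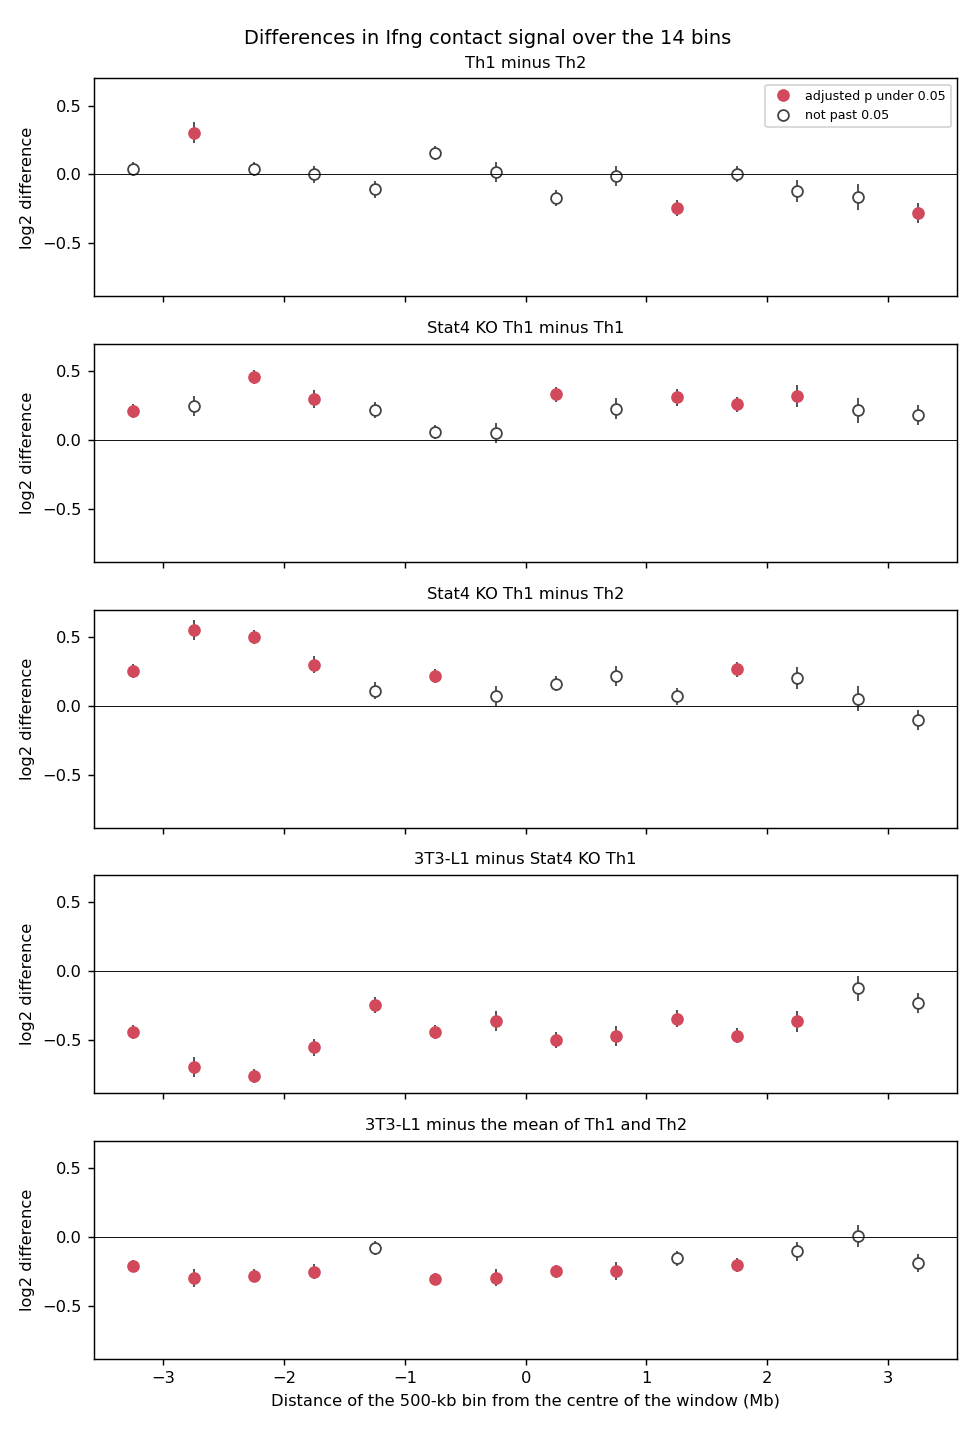
Difference in centred log2 ratio in each of the 14 bins, against distance in Mb from the centre of the stretch, for the 5 tested comparisons; bars are standard errors and filled points passed an adjusted p of 0.05 over 5021 bins. Stat4 KO minus Th1 is above 0 in all 14 bins and 3T3-L1 minus Stat4 KO is below 0 in all 14.

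**Figure D4:**
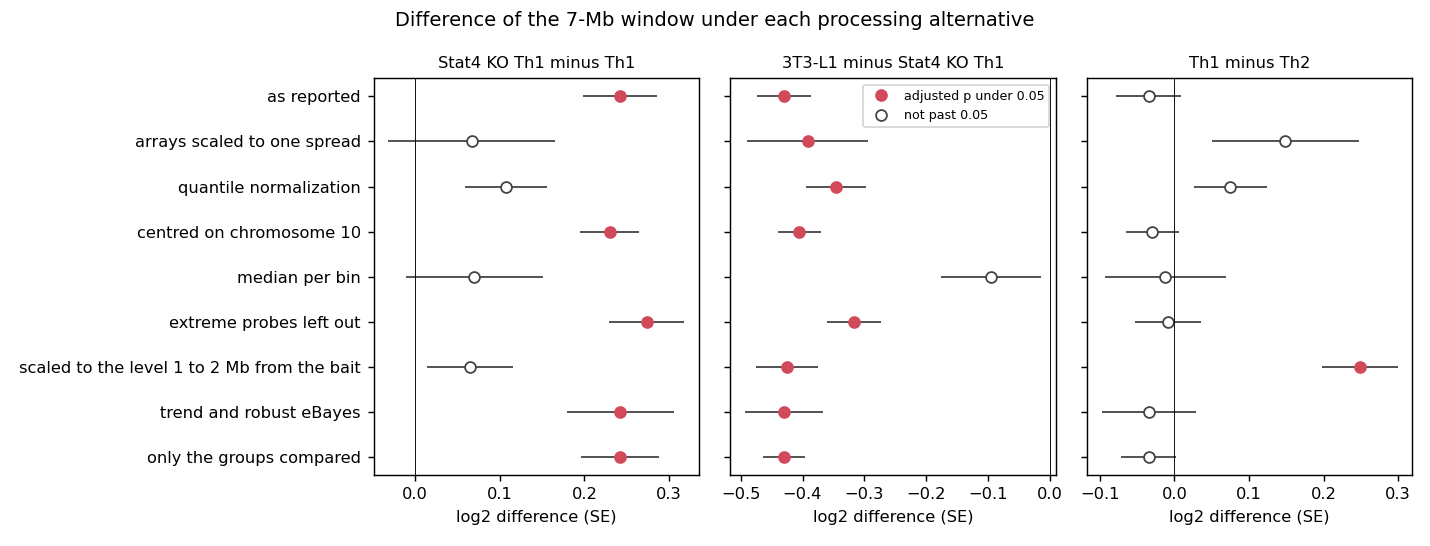
Difference of the whole stretch under each way of processing, in log2 units with standard errors, for 3 comparisons; filled points passed an adjusted p of 0.05 over the windows of the genome. 3T3-L1 minus Stat4 KO passes under all settings drawn except the median per bin; Stat4 KO minus Th1 falls to between 0.06 and 0.11 under 4 of them; Th1 minus Th2 changes sign.

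Compared with naive cells, both arrays lay lower than both naive arrays in 14 of 14 bins for 3T3-L1, in 13 for Stat4 KO, in 14 for Th1 and in 13 for Th2. The same held for 24.3%, 12.8%, 24.2% and 14.5% of all bins and for 63.1%, 51%, 67.1% and 45.8% of bins on chromosome 10, in the same order of groups. Nothing is read from these counts, because this contrast chose the stretch. The difference was largest in chr10:39500001-40000000 for 3T3-L1 (-1.92), Th1 (-1.62) and Th2 (-1.66), and in chr10:41500001-42000000 for Stat4 KO (-1.36). It was smallest in the last bin for all 4 groups, at -0.36 in 3T3-L1, -0.13 in Stat4 KO, -0.31 in Th1 and -0.03 in Th2. These comparisons share the naive arrays.

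Other far parts of chromosome 10, also picked as far Ifng contact domains, had levels of a similar order. They do not stand for far chromosome 10 in general. More than 20 Mb from the bait, chromosome 10 averaged 0.674 and 0.689 in the naive arrays. At 16.5 to 22.5 Mb the group means were 0.08 in 3T3-L1, 0.32 in Stat4 KO, 0.24 in Th1, 0.18 in Th2 and 1.40 in naive T cells, and at 57 to 63 Mb 0.13, 0.59, 0.34, 0.52 and 1.32, in the same order of groups.

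Seen from Il4, on chromosome 11, the same stretch was near the level of other chromosomes in all cells. Its mean was 0.112 and 0.140 in Stat6 KO, 0.120 and 0.104 in Th1, 0.0436 and 0.0456 in Th2, and 0.0145 and 0.0664 in naive T cells. Th1 minus naive was 0.07 (SE 0.03; limma, adjusted p = 0.413) and Th2 minus naive 0.0041 (SE 0.03; limma, adjusted p = 0.982), where 0 and 2.45% of windows were called. By limma 0 of 14 bins were called in either comparison, against 0.119% and 2.23% of all bins and 0 on chromosome 10; at an unadjusted p under 0.05 there was 1 bin in each. All the same, the stretch lay above both its flanks in 7 of 8 Il4 arrays, by 0.0017 to 0.168 over their mean in all 8, with naive replicate 1 as the exception. No test of that excess is given. Over the 14 bins, the Pearson correlation of a group's Il4 profile with the same group's Ifng profile was 0.47 in Th1, 0.17 in Th2 and 0.73 in naive T cells. With the Ifng profile of naive cells it was 0.37 for the Il4 profile of Stat6 KO, 0.59 for Th1 and 0.13 for Th2; the probes are shared between baits, and this is a description only.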

How the data were processed

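The deposited files hold, per probe, a log2 ratio of Cy5-labelled 4C DNA over Cy3-labelled genomic DNA cut with HindIII and Csp6I, per the labels' protocols. Base 2 was assumed, since the files do not state it; the authors' normalization, aligner and build are not given in the sources used here. The build was taken as mm8, in which 0 of 21 chromosomes had a probe past its end, against 11 in mm7, 5 in mm9 and 8 in mm10. Sorted values of the 2 arrays of a group were equal within 0.011 for at least 99.5% of probes in the Ifng groups other than Th1 (42.8%), so most pairs share 1 distribution and a difference in overall spread within them cannot be seen. Between groups the spread differed, with a mean SD over all probes of 0.422 in 3T3-L1 and 0.592 in naive Ifng arrays. The standard errors and p-values rest on differences within groups, so they may be too small.

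The median of the probes off the bait's chromosome was subtracted from each array. Probes were averaged in 500-kb bins (at least 20 probes, 5021 bins) and 7-Mb windows (at least 280 probes, 368 windows), leaving out bins within 1 Mb of the bait. All arrays of a bait entered 1 limma fit (lmFit, contrasts.fit, eBayes; two-sided), with Benjamini-Hochberg adjustment over all bins or windows at 0.05. P-values rest on 2 arrays a group. In each group the 3 highest and 3 lowest 100-kb bins were open to naming, with the bins at each edge. The fit was run on simulated data with independent noise of the same spread in all bins and arrays. The real arrays differ in spread, so that run checks the code and not the p-values given here. The stretch, the lists and the tests were chosen with earlier results of these data known. Alternatives were quantile normalization, other scalings and centrings, medians, trimming 1% of probes, other eBayes settings, fewer groups, blocks and leaving out arrays; array series, the leading digits of the array number, was 1 of these blocks. R 4.3.3, limma 3.58.1, circlize 0.4.16 (bands), Python 3.11.15, numpy 2.4.6, pandas 2.3.3 and matplotlib 3.10.9 were used.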

Additional observations from a re-analysis of the deposited data

Results flagged for a closer look

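Th1 and naive arrays stood in opposite order from the 2 baits. From Ifng the stretch differed by -1.10 (log2), with both Th1 arrays below both naive arrays, and from Il4 by 0.0715, with both Th1 arrays above both naive arrays. The Il4 difference did not pass (limma, adjusted p = 0.413; 0 of 14 bins called) and was 0.0025 with the median per bin, so no opposite change is shown. The difference between baits was not tested, and the stretch was chosen on the first of these contrasts. Groups of 2 arrays allowed no test for single outlying arrays.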

How the results depend on the processing

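Of the results called over windows, 3T3-L1 minus Stat4 KO depended least on the processing. Of 13 alternatives 12 kept its call, and with the median per bin it was -0.095 with 0 bins called. With arrays scaled to one spread it passed only narrowly (-0.39, limma, adjusted p = 0.0497). Leaving out 1 array gave -0.483 to -0.3771. From Il4, Th1 minus naive stayed uncalled in all 13 alternatives. 3T3-L1 minus the mean of Th1 and Th2 was no longer called with arrays scaled to one spread (-0.25; 3 bins), the median per bin (-0.0313; 0 bins) or extreme probes left out (-0.0474; 0 bins); trend and robust eBayes called 0 bins; leaving out 1 array gave -0.2313 to -0.179 and 1 to 9 bins. Stat4 KO minus Th1 was no longer called when arrays were scaled to one spread (0.0670; 0 bins), quantile normalized (0.108; 1 bin), taken as the median per bin (0.07; 0 bins) or scaled to the bait (0.0647; 0 bins); trend and robust eBayes called 0 bins; leaving out 1 array gave 0.1892 to 0.2951 and 1 to 7 bins. Stat4 KO minus Th2 came past the threshold when centred on chromosome 10 (0.20) or scaled to the bait (0.31), and without Stat4 KO replicate 2; leaving out 1 array gave 0.1546 to 0.2606 and 2 to 5 bins, and it called 0 bins with one spread or the median, 2 with quantile normalization or with trend and robust eBayes, and 3 with only the groups compared. Th1 minus Th2 reversed with one spread (0.15), quantile normalization (0.0751) and scaling to the bait (0.25; 6 bins); leaving out 1 array gave -0.0869 to 0.0178, including 0.0071 without Th2 replicate 1, and 0 to 2 bins; 0 bins were called with one spread, the median, extreme probes left out, trend and robust eBayes or the array series as a block, and 1 with only the groups compared. From Il4, Th2 minus naive reversed with extreme probes left out (-0.0094), and leaving out 1 array gave -0.0218 to 0.0301. The cause of these changes was not tested.

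Differences from naive cells kept their sign under the alternatives run. With one spread, quantile normalization, centring on chromosome 10, the median, extreme probes left out and scaling to the bait they were -0.85, -1.02, -1.16, -0.96, -0.82 and -0.98 for 3T3-L1; -0.46, -0.68, -0.76, -0.87, -0.50 and -0.56 for Stat4 KO; -0.53, -0.79, -0.99, -0.94, -0.78 and -0.62 for Th1; and -0.67, -0.86, -0.96, -0.93, -0.77 and -0.87 for Th2. Replicate numbers were not taken to pair the arrays. The deviations of same-numbered arrays correlated between -0.207 and 0.238 over 10 pairs of Ifng groups, with 4 above 0.1. Over 6 pairs of Il4 groups they correlated between -0.382 and 0.369, with 2 above 0.1. With the replicate number as a block, Stat4 KO minus Th1 was 0.24 (limma, adjusted p = 0.0316; 5 bins), Stat4 KO minus Th2 called 6 bins, 3T3-L1 minus Stat4 KO 12 and Th1 minus Th2 3. The array series could not be fitted as a block for the Stat4 KO and 3T3-L1 comparisons. The values within 1 array series, -0.0869 for Th1 minus Th2 and -1.05 for Th1 minus naive, were added after seeing the data. Each rests on 1 Th1 array, replicate 2 for the comparison with Th2 and replicate 1 for that with naive cells.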
